A study of Mus musculus with 6 samples.

Results

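The genes described here build the cornified envelope, the protein shell of the outermost cells of the skin, or belong to the epidermal differentiation complex, the cluster of such genes on mouse chromosome 3. They are 48 genes chosen by symbol, out of 52550 genes in the deposited table, and all 48 were found there. The rule is a list of symbols and uses no measured value. By role they are 5 fused-type S100 proteins, 2 envelope precursors, 14 small proline-rich proteins, 17 late envelope proteins, 2 plakins, 4 enzymes and 4 small secreted or associated proteins. In GENCODE M21 on GRCm38, 38 of them lie on chromosome 3 between positions 92080271 and 93449077, 4 on chromosome 7, 2 on chromosome 2, and 1 each on chromosomes 10, 11, 14 and 16.

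RNA was sequenced from primary keratinocytes, the cells that make up most of the epidermis, of wild-type C57BL/6 mice aged 0 to 2 days after birth. The treated group, 3 libraries, received recombinant IL-33, an IL-1 family cytokine, for 12 h after 2 days of culture. The control group, 3 libraries, was cultured in the same way and left untreated. No source used here gives the amount of IL-33. Nothing states that the libraries came from separate cultures or animals, so a p-value here sets the group difference against a spread between libraries that may be technical.

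Keratinocytes that leave the basal layer stop dividing and make the envelope in a set order. Envoplakin and periplakin form a scaffold under the plasma membrane, involucrin is laid on it, and transglutaminases then crosslink loricrin, small proline-rich proteins and late envelope proteins into the shell. Filaggrin and its relatives bundle keratin filaments inside the dying cell.

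Sprr2a1 and Sprr2a2 had the smallest p-values of the members in the edgeR test below, which neither passed, and the sequences of the 3 Sprr2a genes show how far these copies can be told apart. Small proline-rich proteins are short crosslinking proteins made mostly of proline, cysteine and glutamine. The coding sequences of Sprr2a1 and Sprr2a2, in the transcripts of GENCODE M21, are identical over all 249 bases without the stop codon. Sprr2a3 differs from both by G63A, G159T and A192T, with the base of Sprr2a1 first, the base of Sprr2a3 last and positions counted from 1 at the first base of the start codon, which leaves 98.8% identity. The next 2 sequences are shown because capitals mark these 3 differences, the only places inside the coding sequence where reads can separate Sprr2a3 from the other copies.
Sprr2a1: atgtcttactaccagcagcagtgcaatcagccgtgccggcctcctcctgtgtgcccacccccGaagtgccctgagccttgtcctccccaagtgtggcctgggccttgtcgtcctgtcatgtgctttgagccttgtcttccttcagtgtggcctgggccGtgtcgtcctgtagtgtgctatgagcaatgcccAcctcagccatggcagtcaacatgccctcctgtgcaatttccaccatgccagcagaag
Sprr2a3: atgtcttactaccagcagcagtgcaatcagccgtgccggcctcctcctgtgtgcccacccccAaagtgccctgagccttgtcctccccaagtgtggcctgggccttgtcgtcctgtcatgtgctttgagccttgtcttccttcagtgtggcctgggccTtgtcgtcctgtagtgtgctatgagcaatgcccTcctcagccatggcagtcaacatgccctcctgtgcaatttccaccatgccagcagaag

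Of the windows of 100 bases in the annotated exons of Sprr2a1, 92.5% occur exactly in another gene. The share was 92.8% for Sprr2a2 and 36.2% for Sprr2a3. The annotated spans also overlap on the same strand: Sprr2a1 lies at chr3:92215799-92221911 and Sprr2a2 at chr3:92215920-92256724 (both plus strand, GRCm38), because 1 transcript of Sprr2a2 begins inside Sprr2a1. No source used here says how the authors' tools divided such reads, so the split of counts between these copies is uncertain. Their sum does not depend on that split, but could hold a shared fragment more than once. Further members with shared windows were Lce3f at 43.0% and Lce3c at 24.1%, both shared mostly with other Lce3 genes. Lce1e and Sbsn had 4.90% and 4.87%.

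Promoter sequence was available in RefSeq (GRCm38.p6) for 43 of the 48 members, and the 250 bases before the annotated start were read. Those of Sprr2a1 and Sprr2a2 are identical over all 250 bases, and Sprr2a3 shares a stretch of 222 bases with them, placed 28 bases further along. The sequences below, each 5′ to 3′ on the gene's strand, are shown for the Sprr2a copies, for 2 other Sprr2 genes, for Sprr1a as the small proline-rich gene with the highest deposited gene FPKM and for the envelope precursor Ivl. Capitals mark TGANTCA, the motif bound by AP-1 factors of the Fos and Jun families, and TATAAA, the TATA box. They come from chr3:92215585-92215834 (plus) for Sprr2a1, chr3:92338890-92339139 (plus) for Sprr2d, chr3:92385435-92385684 (plus) for Sprr2h, chr3:92485882-92486131 (minus) for Sprr1a and chr3:92573736-92573985 (minus) for Ivl.
Sprr2a1: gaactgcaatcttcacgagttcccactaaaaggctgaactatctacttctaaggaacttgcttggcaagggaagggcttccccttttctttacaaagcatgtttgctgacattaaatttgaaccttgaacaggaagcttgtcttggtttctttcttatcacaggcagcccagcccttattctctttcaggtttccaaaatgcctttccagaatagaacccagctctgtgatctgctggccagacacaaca
Sprr2d: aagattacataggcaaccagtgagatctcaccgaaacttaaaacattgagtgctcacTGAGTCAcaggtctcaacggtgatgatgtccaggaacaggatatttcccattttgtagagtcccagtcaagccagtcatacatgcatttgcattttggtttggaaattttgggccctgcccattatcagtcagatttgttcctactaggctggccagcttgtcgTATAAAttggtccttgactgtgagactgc
Sprr2h: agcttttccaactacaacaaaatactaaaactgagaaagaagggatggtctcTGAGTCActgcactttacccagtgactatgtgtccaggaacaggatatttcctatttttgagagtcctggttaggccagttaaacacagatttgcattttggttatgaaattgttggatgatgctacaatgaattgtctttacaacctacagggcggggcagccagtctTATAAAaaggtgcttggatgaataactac
Sprr1a: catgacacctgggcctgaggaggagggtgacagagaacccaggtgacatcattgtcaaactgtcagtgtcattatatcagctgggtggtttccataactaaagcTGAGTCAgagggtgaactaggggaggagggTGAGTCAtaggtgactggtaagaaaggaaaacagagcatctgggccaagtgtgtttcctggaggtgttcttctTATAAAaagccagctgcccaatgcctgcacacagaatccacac
Ivl: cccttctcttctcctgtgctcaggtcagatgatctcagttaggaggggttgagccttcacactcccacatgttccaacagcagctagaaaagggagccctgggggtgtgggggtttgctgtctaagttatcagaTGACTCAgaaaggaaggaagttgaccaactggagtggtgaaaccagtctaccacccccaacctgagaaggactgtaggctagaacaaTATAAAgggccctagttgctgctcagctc

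TGANTCA, searched on both strands, was present in 16 of the 43 members (37.2%), against 7.82% of the 27025 genes in the promoter table. TATAAA, searched on the gene's strand, was present in 18 (41.9%), against 8.94% of all genes. CCAAT, searched on both strands, was present in 13 (30.2%), against 37.5% of all genes. A 10-letter form of the NF-kB site, the factor that IL-33 receptor signalling is known to activate, was found, with both strands searched, in 1 member, Sbsn (2.33%), against 1.65% of all genes. Matches of different motifs overlapped at 2 places, TATAAA with CCAAT in Sprr2d and Sprr2e.

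The AP-1 matches followed the gene families. All 6 Sprr2 genes outside the Sprr2a copies that had a promoter sequence held TGANTCA starting 193 to 198 bases before the start, together with TATAAA 29 bases before it. Ivl and Lor both held the pair, and Sprr1a held TGANTCA at 2 places. None of the 15 late envelope genes and none of the 4 enzyme genes with a promoter sequence held TGANTCA. The Sprr2a copies had no match to TGANTCA or TATAAA in this window, which says only that these letters are not in it. For these copies, and for Sprr2b among the 6 Sprr2 genes above, the RefSeq starts differ from those of GENCODE M21. The Sprr2b window ends at 92316704, past its GENCODE start at 92316620, so its motif positions hold for the RefSeq start only. The Sprr2a1 window ends at 92215834, past its GENCODE start at 92215799. The Sprr2a2 and Sprr2a3 windows end at 92250646 and 92285303, short of GENCODE transcript starts at 92250747 and 92285417. No separate search was made of the bases before the GENCODE starts. The median FPKM was 1.41 for the 16 members with TGANTCA and 0.421 for the 27 without, given as a description over genes that share families and neighbourhood.

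**Figure D1:**
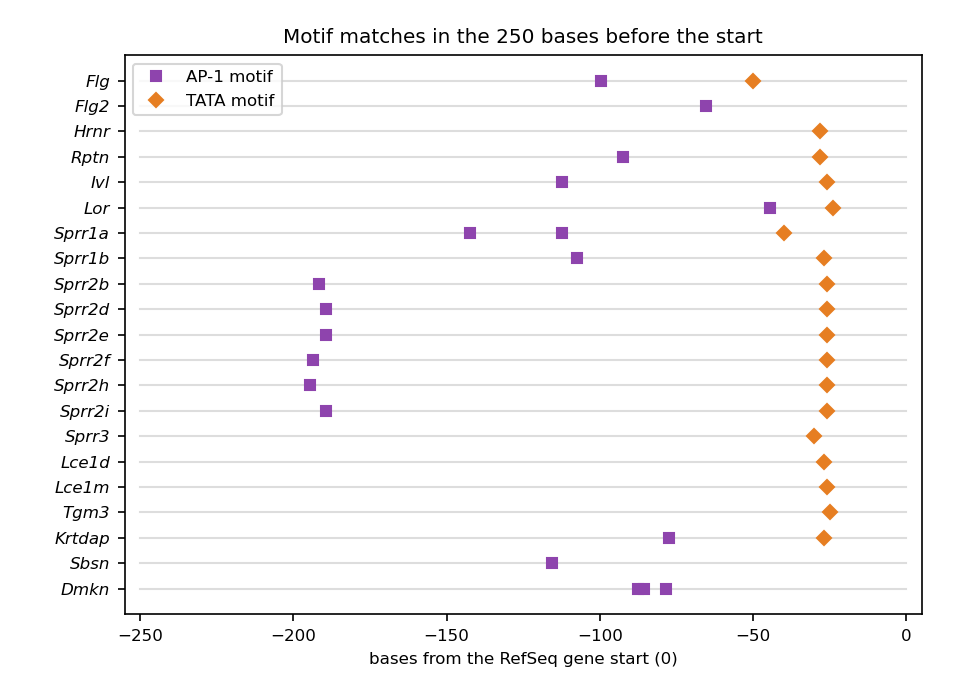
Position of each AP-1 (squares) and TATA (diamonds) match in the 250 bases before the RefSeq start of the members that hold at least 1 of them; the horizontal axis is the distance from the start in bases. The AP-1 matches of the 6 Sprr2 genes line up 193 to 198 bases before the start, and those of the other members lie closer to it.

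The libraries held 34188173 to 44255925 deposited counts with IL-33 and 41456441 to 45266298 untreated, and the IL-33 replicate 2 library was the smallest. About 4 deposited counts make 1 sequenced fragment, a scale read from the values themselves, so a floor of 12 deposited counts in a library, taken as 3 fragments, was used for detection and covers counting error only. It corresponds to 0.271 to 0.351 CPM with IL-33 and 0.265 to 0.289 CPM untreated, where CPM stands for deposited counts scaled to each library's total. The 10 keratinocyte markers summed to 40186 to 42756 CPM with IL-33 and 39975 to 41010 CPM untreated. By log2 fold change, IL-33 minus untreated, 4 of them were above 0 and 6 below, with a median of -0.02. The basal markers Krt5 and Krt14, 2 of these 10, stood at 18995 and 14645 CPM with IL-33 and at 18034 and 14350 CPM untreated. The 7 markers of suprabasal keratinocytes summed to 10.2 to 11.7 CPM with IL-33 and 7.22 to 8.89 CPM untreated, with Krt2 at 0 in all 6 libraries. Fibroblast markers summed to 68.5 to 75.6 CPM with IL-33 and 73.4 to 84.7 CPM untreated, melanocyte markers to 1103 to 1196 and 1081 to 1151 CPM, endothelial markers to 16.1 to 16.7 and 13.5 to 19.2 CPM, and immune markers to 0.478 to 3.10 and 0 to 0.849 CPM. Hair follicle markers summed to 268 to 277 CPM with IL-33 and 285 to 297 CPM untreated, with Krt25 at 0. Of the 8 immune markers 3 (Cd3e, Cd207 and Itgax) were at 0 in all 6 libraries, and 0 were above the floor in all 6. Of the 4 endothelial markers 1 (Emcn) was at 0 in all 6 libraries, and 2 were above the floor in all 6. In bulk RNA, fewer cells of a type and less RNA per cell cannot be told apart.

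The envelope programme was present only in part in these cultures. Of the 48 members, 26 were above 12 deposited counts in all 6 libraries, 13 in some and 9 in none. Between genes, levels are compared as FPKM, fragments per kilobase scaled to depth, which takes length into account. By mean FPKM over the 6 libraries, 10 members reached 10, 23 reached 1 and 25 stayed under 1. The members above the floor in every library included both plakins, both precursors, all 4 secreted or associated proteins and 9 of the 14 small proline-rich genes, but only 5 of the 17 late envelope genes and 2 of the 5 fused-type S100 genes.

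Dmkn, a secreted glycoprotein of the stratified epidermis, had the highest FPKM of the members, 88.9, which was at the 96.8th percentile of all tested genes. It was followed by Sprr1a at 59.1, Sprr2h and Sprr2a2 at 23.3 each, Krtdap at 23.1, Sprr1b at 21.8, Sbsn at 20.7, Sprr2a1 at 19.2, Crct1 at 18.4 and Ppl at 15.3. Lor, the main envelope protein of finished epidermis, averaged 0.650 FPKM, and the filaggrin gene Flg 0.271 FPKM. The deposited FPKM of a gene with several transcripts depends on the length given to it. The transcripts of Sprr2a2 added up to 86.9 FPKM, those of Dmkn to 157, those of Sbsn to 65.5 and those of Krtdap to 37.0. Those of Flg added up to 1.51 FPKM, against 0.271 for the gene. Most Flg entries are short single-exon pieces inside the span of the longest, so this sum is not a level of the gene. The longest, ENSMUST00000214837.1 of 14497 bases, held 68.4% to 85.1% of the Flg counts, at 0.216 to 0.358 FPKM.

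**Figure D2:**
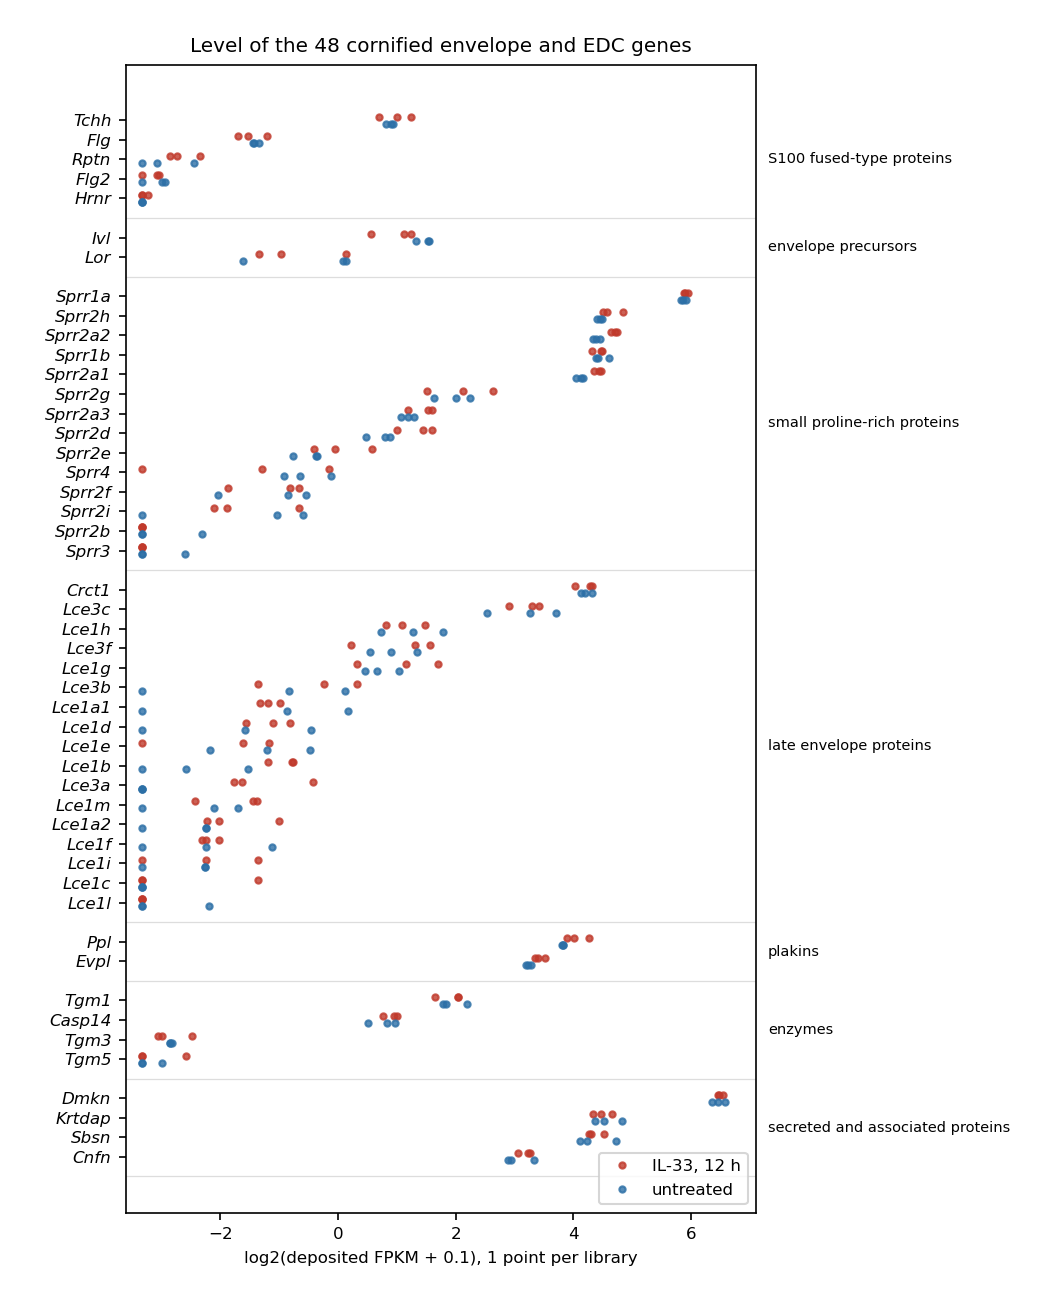
Deposited FPKM of the 48 members, plotted as log2(FPKM + 0.1), with 1 point per library, IL-33 in red above untreated in blue, and genes ordered within each role by mean FPKM. Dmkn, Sprr1a and a few further small proline-rich and secreted genes stand at the right, while most late envelope genes lie near the left edge, where a library is listed at 0.

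None of the 48 members was called different between IL-33 and untreated cells in the main test, edgeR's quasi-likelihood test with p-values adjusted over all genes at a threshold of 0.05. The filter on low counts left 34 members in the test, and over all 15778 genes tested 11 were called (0.0697%), 7 higher (0.0444%) and 4 lower (0.0254%). At an unadjusted p under 0.05 there were 6 of the 34 members, against 6.74% of all genes: 5 higher with IL-33 (Sprr2a1, Sprr2a2, Sprr2d, Evpl and Ppl), against 3.42% of all genes, and 1 lower (Ivl), against 3.31%. The groups did not overlap in 8 members, against 13.7% of all genes. In 7 of them every IL-33 library was above every untreated library, against 7.39% of all genes, 1 of the 7 being Lce1b, which stood under the floor in every untreated library and in 1 IL-33 library. In the remaining 1, Ivl, every IL-33 library was below, against 6.26%. The log2 fold change, IL-33 minus untreated, was above 0 for 22 of the 34 members, against 50.5% of all genes. Its median was 0.13 over the 34 members and 0.00 over all genes, and 0.03 over the 31 tested members outside the Sprr2a copies.

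**Figure D3:**
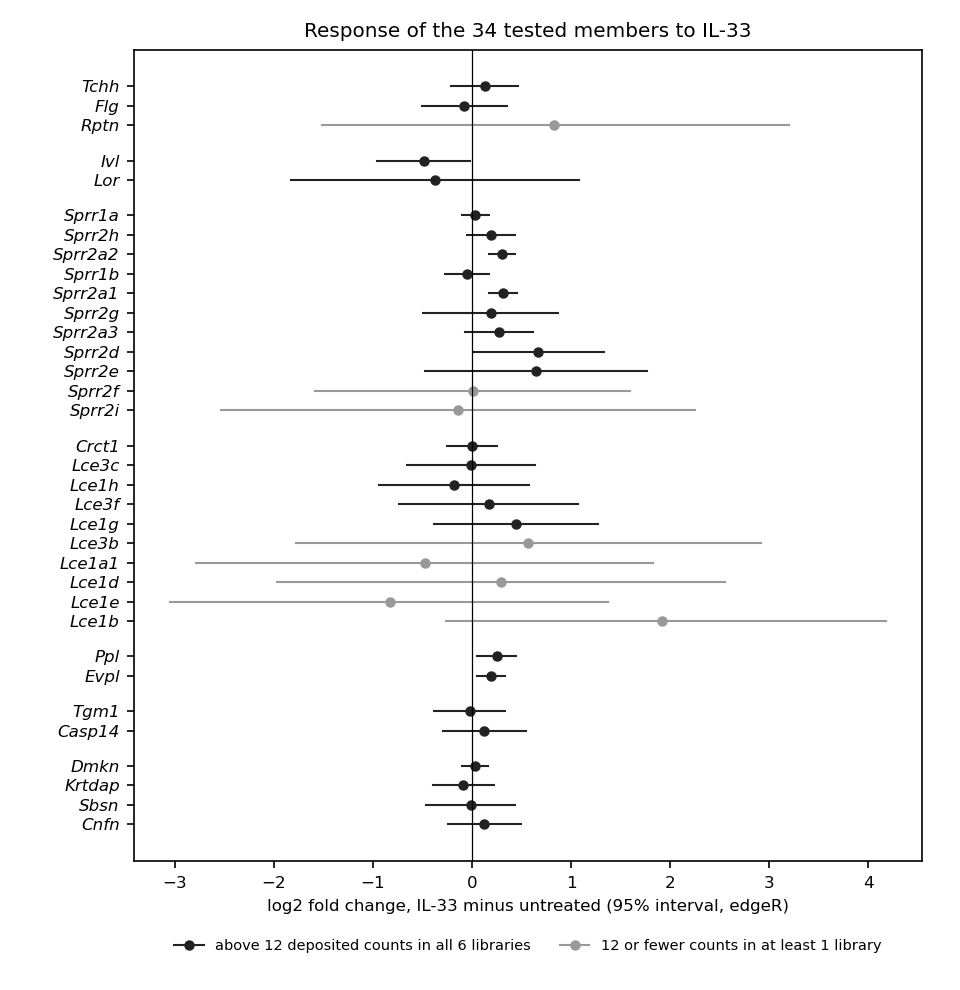
Log2 fold change, IL-33 minus untreated, with its 95% interval from edgeR for the 34 tested members, grouped by role; grey marks members with 12 or fewer deposited counts in at least 1 library. The intervals of Sprr2a1, Sprr2a2, Sprr2d, Evpl and Ppl lie above 0 and that of Ivl below it, before any adjustment for the number of genes.

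Among the small proline-rich genes, Sprr2a1 and Sprr2a2 had higher values in every IL-33 library and intervals clear of 0 before adjustment, and neither passed the edgeR test. Sprr2a1 had 71.4, 73.9 and 67.7 CPM in the IL-33 libraries, against 57.7, 54.9 and 59.3 CPM in the untreated libraries. The log2 fold change was 0.31 (SE 0.0633, 95% interval 0.17 to 0.45, edgeR adjusted p = 0.307). All 3 IL-33 libraries were above all 3 untreated ones, and the lowest IL-33 value was that of replicate 3.

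Sprr2a2 had 83.5, 86.2 and 80.0 CPM with IL-33, against 67.0, 65.2 and 70.0 CPM untreated, a log2 fold change of 0.30 (SE 0.0597, 95% interval 0.17 to 0.44, edgeR adjusted p = 0.304). These groups did not overlap either. Most of the sequence of Sprr2a1 and Sprr2a2 is shared and the split of reads between them is uncertain, so the pair is not taken as 2 independent observations. Sprr2a3 had 9.33, 6.99 and 8.99 CPM with IL-33, against 6.46, 7.01 and 7.50 CPM untreated, a log2 fold change of 0.27 (95% interval -0.07 to 0.62, edgeR adjusted p = 0.777). Its IL-33 replicate 2 library lay inside the untreated range.

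Counted as a single feature, the 3 copies had 164, 167 and 157 CPM with IL-33, against 131, 127 and 137 CPM untreated. The means were 163 ± 5.31 CPM with IL-33 and 132 ± 4.91 CPM untreated (SD, n = 3 each), a ratio of 1.24. The fitted log2 fold change of the sum was 0.31 (SE 0.0495, 95% interval 0.19 to 0.42, edgeR adjusted p = 0.115). DESeq2 called the copies where edgeR did not: its adjusted p was 0.0145 for Sprr2a2 and 0.0248 for Sprr2a1, in a fit that called 71 of 16171 genes (0.439%). For the sum its adjusted p was 0.00107, in a separate fit that called 68 of 16168 genes (0.421%). With the deposited counts first divided by 4, to about whole fragments, DESeq2 gave adjusted p = 0.228 for Sprr2a2 and 0.294 for Sprr2a1 and called no member, against 31 of 22041 genes (0.141%). The sum of the copies was not fitted by DESeq2 on counts divided by 4. Whether a fragment shared by the copies enters their sum more than once is not known.

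The difference in the Sprr2a copies depended on no single library for its direction, while its adjusted p, taken over all genes, moved with the library left out. With each library left out in turn, the log2 fold change of Sprr2a1 and of Sprr2a2 stayed between 0.27 and 0.34. Their edgeR adjusted p ran between 0.0764 and 0.740 for Sprr2a1 and between 0.0753 and 0.737 for Sprr2a2, lowest without IL-33 replicate 3 and highest without untreated replicate 1. Without IL-33 replicate 3 the unadjusted edgeR p was 5.69e-04 for Sprr2a1 and 5.31e-04 for Sprr2a2, against 6.91e-04 and 5.15e-04 with all libraries. That fit called 90 genes, against 11 with all libraries. The unadjusted edgeR p was highest without untreated replicate 2, at 0.00447 and 0.00335. The sum of the suprabasal keratinocyte markers was also higher in all 3 IL-33 libraries. Of those 7 genes 5 were tested, 4 with a log2 fold change above 0 and 1 below, with a median of 0.50. Krt1 had a log2 fold change of 0.94 (edgeR adjusted p = 0.740) and Krt10, the 1 below 0, -0.07 (edgeR adjusted p = 0.977). The part of these markers in the Sprr2a difference was not tested.

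The other Sprr genes showed smaller or less certain differences. Sprr2d had 2.23, 2.00 and 1.45 CPM with IL-33, against 0.983, 1.26 and 1.32 CPM untreated, a log2 fold change of 0.67 (95% interval 0.01 to 1.33, edgeR adjusted p = 0.740). Its groups did not overlap, although each library held only 44 to 98 deposited counts of it. Sprr2h had 23.9, 19.8 and 18.9 CPM with IL-33, against 18.3, 17.7 and 18.7 CPM untreated, a log2 fold change of 0.19 (95% interval -0.05 to 0.44, edgeR adjusted p = 0.777). Here the groups were separated by a narrow margin, and IL-33 replicate 1 stood above the rest.

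Sprr1a had 54.7, 53.0 and 53.0 CPM with IL-33, against 52.1, 54.2 and 50.8 CPM untreated. The groups overlapped, with a log2 fold change of 0.03 and a 95% interval of -0.10 to 0.17 (edgeR adjusted p = 0.947). Sprr1b averaged 19.7 ± 1.15 CPM with IL-33 and 20.4 ± 1.73 CPM untreated (SD, n = 3 each), with a log2 fold change of -0.05 (95% interval -0.27 to 0.17). Whether these genes differed from the Sprr2a copies was not tested.

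Sprr2g, Sprr2e, Sprr2f and Sprr2i had overlapping groups and log2 fold changes of 0.19, 0.64, 0.01 and -0.14, with Sprr2f and Sprr2i near the floor. Of the Sprr2g counts, 61.2% to 100% were put on ENSMUST00000189634.6, which is annotated as a polymorphic pseudogene. Sprr2b, Sprr3 and Sprr4 were never above the floor. Sprr2b and Sprr3 were listed at 0 in 5 of the 6 libraries. Summed over all 14 genes, the Sprr signal averaged 263 ± 9.51 CPM with IL-33 and 228 ± 2.23 CPM untreated (SD, n = 3 each), most of it from the Sprr2a copies and Sprr1a. The 7 Sprr2 genes outside the copies summed to 27.1 ± 4.45 CPM with IL-33 and 23.2 ± 0.235 CPM untreated.

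**Figure D4:**
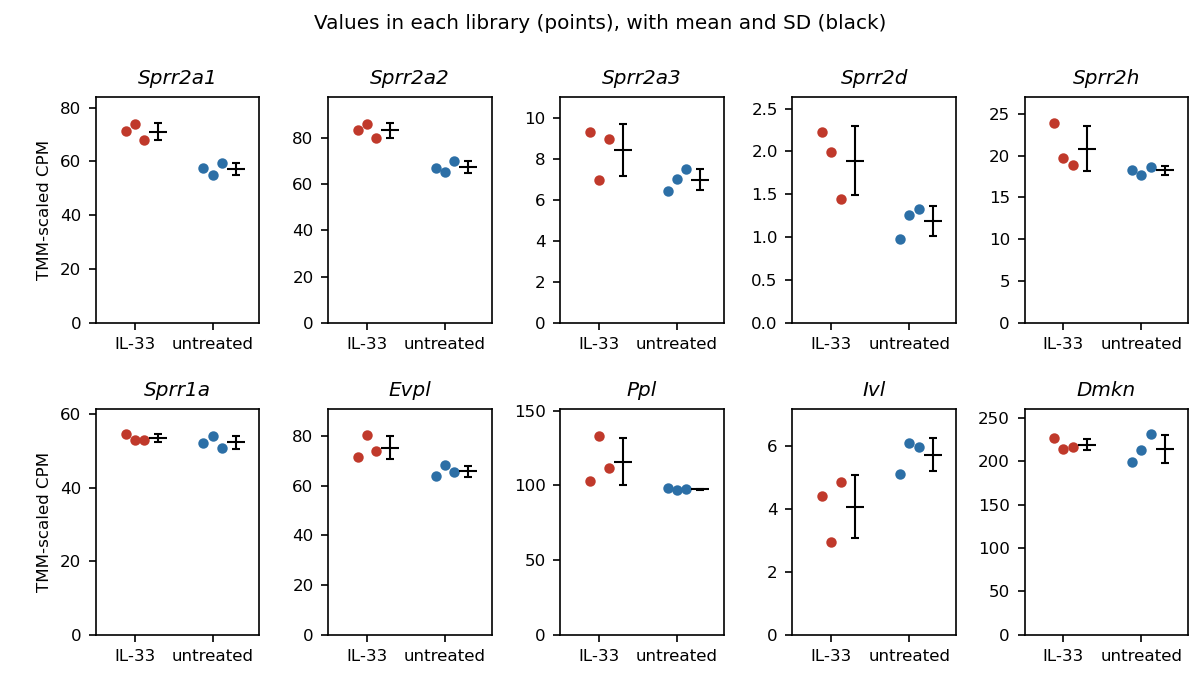
CPM in each library (points) with the mean and SD of each group (black), IL-33 left of untreated, for 10 members. The points of Sprr2a1 and Sprr2a2 do not overlap between groups (67.7 CPM or more with IL-33 against 59.3 CPM or less untreated for Sprr2a1), while those of Sprr1a and Dmkn do.

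The scaffold plakins were both higher in every IL-33 library, without passing the test. Evpl, envoplakin, had 71.7, 80.5 and 74.1 CPM with IL-33, against 64.1, 68.4 and 65.4 CPM untreated, a log2 fold change of 0.19 (95% interval 0.05 to 0.34, edgeR adjusted p = 0.710). Ppl, periplakin, its partner in the scaffold, had 103, 133 and 112 CPM with IL-33, against 97.9, 97.2 and 97.4 CPM untreated, a log2 fold change of 0.25 (95% interval 0.05 to 0.45, edgeR adjusted p = 0.740). IL-33 replicate 2, the smallest library, held the highest value of both. Without it the log2 fold change was 0.14 for Evpl and 0.14 for Ppl. The pair summed to 191 ± 20.3 CPM with IL-33 and 163 ± 1.86 CPM untreated (SD, n = 3 each).

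Of the 2 envelope precursors, Ivl had lower values with IL-33 and Lor had overlapping groups, and neither passed the test. Ivl, involucrin, had 4.41, 2.94 and 4.85 CPM with IL-33, against 5.12, 6.09 and 5.96 CPM untreated, a log2 fold change of -0.49 (95% interval -0.96 to -0.02, edgeR adjusted p = 0.740). All IL-33 libraries were below all untreated ones, and IL-33 replicate 2 was again the farthest out, with a log2 fold change of -0.31 without it. Lor, loricrin, had 0.819, 2.00 and 0.589 CPM with IL-33, against 1.90, 0.459 and 1.99 CPM untreated. Its groups overlapped fully, and the 95% interval of its log2 fold change was -1.83 to 1.08 (edgeR adjusted p = 0.941).

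The fused-type S100 genes encode large repeat proteins that bundle keratin or enter the envelope. Tchh, trichohyalin, best known from the inner root sheath of the hair follicle, had 12.4, 9.92 and 14.8 CPM with IL-33, against 11.8, 11.4 and 10.7 CPM untreated. Flg had 4.48, 7.13 and 5.32 CPM with IL-33, against 5.79, 5.75 and 6.29 CPM untreated. Both overlapped between groups, with log2 fold changes of 0.13 (edgeR adjusted p = 0.904) for Tchh and -0.08 (edgeR adjusted p = 0.963) for Flg, and in both the IL-33 libraries spread more widely than the untreated ones.

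Rptn, repetin, had 8, 9 and 21 deposited counts with IL-33 and 5, 17 and 0 untreated, so its log2 fold change of 0.83 rests on a handful of fragments (95% interval -1.51 to 3.20). Flg2 and Hrnr were above the floor in no library, and Hrnr was listed at 0 in 5 of 6.

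Of the late envelope genes, which are laid down last on the shell, 5 of 17 were above the floor in every library, 9 in some and 3 in none. Crct1, the cysteine-rich C-terminal gene at the edge of the Lce cluster, had 17.4, 17.1 and 14.3 CPM with IL-33, against 15.2, 17.5 and 16.0 CPM untreated, a log2 fold change of 0.00 (95% interval -0.25 to 0.26, edgeR adjusted p = 0.998). Lce3c had 6.69, 4.67 and 6.18 CPM with IL-33, against 3.60, 6.02 and 8.10 CPM untreated, a log2 fold change of -0.01 (95% interval -0.66 to 0.63, edgeR adjusted p = 0.996). The groups of both overlapped, and the untreated libraries of Lce3c covered a wider range than the IL-33 libraries.

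Lce1h, Lce1g and Lce3f, the other late envelope genes above the floor in every library, had overlapping groups and log2 fold changes of -0.18, 0.44 and 0.17. Lce1b had 11, 13 and 16 deposited counts with IL-33, against 0, 8 and 3 untreated, and its log2 fold change of 1.92 had an interval of -0.26 to 4.18 (edgeR adjusted p = 0.763). Lce1e had 12, 0 and 9 deposited counts with IL-33, against 22, 5 and 12 untreated. Lce1a1 had 15, 8 and 12 deposited counts with IL-33, against 36, 0 and 17 untreated. These 3 genes stood near or under the floor in most libraries, and no direction is read from them.

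Lce3b and Lce1d passed the filter with 0 counts in 1 untreated library each and overlapping groups. Lce3a had 6, 4 and 18 deposited counts with IL-33 and 0, 0 and 0 untreated. It did not pass the filter, and of its IL-33 libraries 1 exceeded the floor. Of the remaining late envelope genes Lce1a2, Lce1f and Lce1m exceeded the floor in 1 library each, and Lce1c, Lce1i and Lce1l in none.

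Among the enzymes, Tgm1, the membrane-bound transglutaminase that crosslinks the envelope, had 13.4, 10.2 and 13.5 CPM with IL-33, against 11.5, 15.0 and 11.2 CPM untreated, a log2 fold change of -0.02 (95% interval -0.38 to 0.33, edgeR adjusted p = 0.984). Casp14, a protease that takes part in filaggrin breakdown, had 4.25, 4.87 and 5.07 CPM with IL-33, against 3.55, 4.52 and 4.94 CPM untreated, a log2 fold change of 0.13 (95% interval -0.29 to 0.55, edgeR adjusted p = 0.928). Both overlapped between groups. The transglutaminases Tgm3 and Tgm5 did not pass the filter, Tgm3 with 4, 4 and 17 deposited counts with IL-33 and 9, 9 and 8 untreated, and Tgm5 above the floor in no library.

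The small secreted and associated proteins were well detected and overlapped between the groups. Dmkn had 227, 215 and 216 CPM with IL-33, against 199, 213 and 231 CPM untreated, a log2 fold change of 0.03 (95% interval -0.10 to 0.16, edgeR adjusted p = 0.945). Krtdap, a small secreted protein of differentiating keratinocytes, had 16.7, 15.3 and 19.2 CPM with IL-33, against 15.7, 21.4 and 17.4 CPM untreated, a log2 fold change of -0.09 (95% interval -0.39 to 0.22, edgeR adjusted p = 0.933). Sbsn, suprabasin, averaged 83.0 ± 8.29 CPM with IL-33 and 83.7 ± 20.3 CPM untreated (SD, n = 3 each). Its untreated replicate 2 library stood out at 107 CPM, and its log2 fold change was -0.01 (95% interval -0.46 to 0.44). Cnfn, cornifelin, an envelope component, averaged 7.23 ± 0.553 CPM with IL-33 and 6.62 ± 1.16 CPM untreated, with a log2 fold change of 0.13.

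The transcript table showed to which annotated transcript the signal of a member was assigned. It held 87 transcripts of the members, of which 52 were tested and 0 were called by edgeR, while over all 40163 transcripts tested 12 were called (0.0299%). At an unadjusted p under 0.05 there were 3, the single transcripts of Sprr2a1, Evpl and Ppl, against 4.24% of all transcripts, and DESeq2 called 0.

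For some members the assignment differed widely between libraries of 1 group. Of the Sprr2a2 counts, 97.8%, 97.8% and 97.0% with IL-33 and 47.8%, 97.7% and 97.4% untreated were put on ENSMUST00000090871.2, the transcript that begins inside Sprr2a1. In untreated replicate 1 the remaining 52.2% went to ENSMUST00000071805.3, while the gene's total in that library was 67.0 CPM, within the range of the other untreated libraries. Of the Sbsn counts, 43.0%, 30.6% and 42.1% with IL-33 and 44.7%, 62.9% and 44.0% untreated were put on the short ENSMUST00000182229.7, highest in the library with the high Sbsn total. Every IL-33 library was below every untreated one, 2 of the untreated ones by a narrow margin, and the difference in share was not tested.

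Of the Dmkn counts, 36.6%, 19.4% and 20.4% with IL-33 and 22.8%, 21.1% and 35.2% untreated were put on the short ENSMUST00000041703.9, so that 1 library of each group stood apart from its other 2. Tgm1 counts were divided between 2 transcripts of similar length, with 83.8%, 64.2% and 99.7% with IL-33 and 100%, 82.6% and 100% untreated on ENSMUST00000178034.7. These shares overlapped between the groups for Dmkn and Tgm1.

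**Figure D5:**
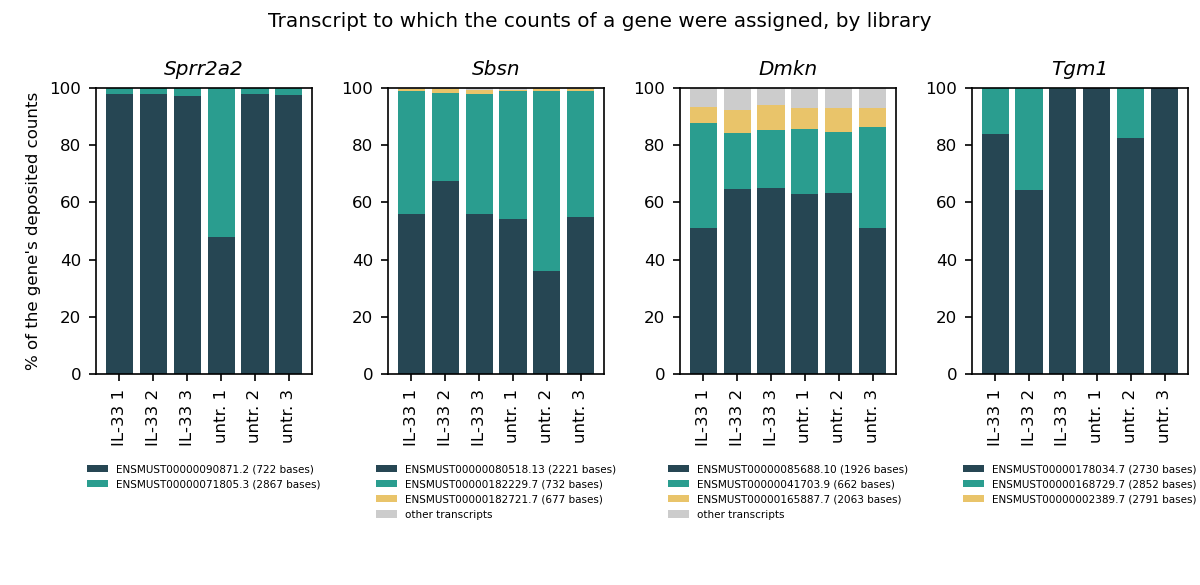
Share of a gene's deposited counts, in percent, put on each annotated transcript, in the 3 IL-33 libraries (left) and the 3 untreated libraries (right, untr.), for Sprr2a2, Sbsn, Dmkn and Tgm1; the legend gives each transcript's exon length. Sprr2a2 in untreated replicate 1, with 52.2% on the longer transcript, differs from the 5 other libraries.

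Other genes of the same programme showed no called difference. A list of 35 genes for processing of the envelope and of filaggrin (crosslinkers, proteases, their inhibitors and deiminases) had 34 in the table and 29 in the test, of which 0 were called by edgeR and 0 by DESeq2. At an unadjusted p under 0.05, 1 was higher and 0 lower, against 3.42% and 3.31% of all genes, and the median log2 fold change was -0.04, against 0.00 over all genes. That gene was Anxa1, annexin A1, a transglutaminase substrate of the envelope, with 1943, 2052 and 2387 CPM with IL-33, against 1827, 1756 and 1844 CPM untreated (edgeR adjusted p = 0.705). St14, the protease matriptase, Klk6, a kallikrein, and Tgm2, tissue transglutaminase, followed by p, all with lower values in every IL-33 library. Their log2 fold changes were -0.09, -0.46 and -1.79 (edgeR adjusted p = 0.763 each), with Tgm2 near the floor.

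A list of 38 transcription factors that control terminal differentiation was tested in full, and 0 were called by edgeR and 0 by DESeq2. At an unadjusted p under 0.05, 8 were higher and 2 lower, against 3.42% and 3.31% of all genes, and the median log2 fold change was 0.06, against 0.00 over all genes. Vdr, the vitamin D receptor, had 51.0, 51.6 and 49.9 CPM with IL-33, against 39.4, 42.1 and 44.4 CPM untreated, a log2 fold change of 0.28 (edgeR adjusted p = 0.495). Its groups did not overlap. Barx2 and Cebpa were also higher in every IL-33 library, with log2 fold changes of 0.40 and 0.24 (edgeR adjusted p = 0.576 and 0.676).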

How the data were processed

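Messenger RNA of 3 IL-33 libraries and 3 untreated libraries was analysed from the deposited gene and transcript tables. Per the submitters' processing notes, the build was mm10 and the tools were HISAT2 2.1.0, FastQC 0.11.7, DESeq2 1.18.1 and StringTie 1.3.4d, with no role stated for any of them. No source used here names the annotation release. The deposited estimated counts are whole numbers and were used as they are. The values point to about 4 of them per fragment: rebuilt from FPKM and length in untreated replicate 1, 1403 transcripts lay within 0.125 of 4, against 411 of 3 and 319 of 5. Smaller piles lay at 8 (804), at 2 (781) and at 6 (407, against 265 at 7), so the scale of 4 is approximate. The deposited FPKM values are scaled to length and depth, per the file headers. All 37 mitochondrial genes were listed at 0.

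Symbols and positions came from GENCODE M21 (GRCm38), which holds 97.16% of the transcript identifiers in the same version, and 45 of the 48 members matched with their version and 3 (Flg2, Ppl and Tgm1) without it. The members and lists were chosen with earlier results of these data known. Groups were compared with the quasi-likelihood test of edgeR 4.0.16 (R 4.3.3) with TMM scaling and the filterByExpr filter at a minimum count of 10, on all genes or all transcripts, with Benjamini-Hochberg adjustment and a threshold of 0.05. CPM values are TMM-scaled. Named with a value in every library were members with an unadjusted p under 0.05, the 2 tested members of highest FPKM in each role, and the 3 highest and 3 lowest log2 fold changes. From the processing and control lists, up to 4 genes with the smallest p were named. A result for 1 gene of the control list is not reported here. A few further members are given by their means. Marker genes were summed as CPM.

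Tried besides were DESeq2 1.42.0, limma-voom, other scaling factors, and limma on log2(FPKM + 0.1) or log2(FPKM + 1) (limma 3.58.1), other filters and thresholds, counts divided by 4, summed copies, the replicate number as a block, and each library left out. DESeq2 on counts divided by 4 or on summed copies was chosen after seeing the data. Every pair of libraries showed more difference than sampling gives (median chi-square over 12154 genes 1.98 to 2.91 times that of sampling). The edgeR fit was tested on simulated data with known changes. It called 2 of 50 genes changed 1.2-fold and 17 of 49 changed 1.5-fold. At 2-fold it called 31 of 48 and at 4-fold 39 of 47, and it also made 13 false calls. A member that was not called can therefore still hold a small change.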

Additional observations from a re-analysis of the deposited data

How the results depend on the processing

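Over 20 settings the log2 fold change of Sprr2a1, Sprr2a2, Sprr2a3, Sprr2d, Evpl and Ppl stayed above 0 and that of Ivl below 0. The unadjusted p of Sprr2d, Ivl, Evpl and Ppl did not stay under 0.05. With DESeq2 it was 0.0926 for Sprr2d and 0.0549 for Ivl. Without IL-33 replicate 2, edgeR gave 0.0975 for Sprr2d, 0.126 for Ivl and 0.0620 for Evpl. Without untreated replicate 1, edgeR gave 0.0508 for Ppl. The number of members called, 0, was 2 with DESeq2 and 1 with DESeq2 on summed copies. The number of genes called, 11, was 71 with DESeq2, 31 with DESeq2 on counts divided by 4, 17 with no filter, 6, 4 and 3 with limma on log2(FPKM + 0.1), log2(FPKM + 1) and log2(FPKM + 1) over every gene with an FPKM above 0, 6 at an adjusted p under 0.01, and 11 to 90 with each library left out, 90 without IL-33 replicate 3. The members' median, 0.13, was 0.057 and 0.034 with limma on log2(FPKM + 1) over the tested and over all genes above 0, and 0.051 to 0.20 with a library left out. The list genes called, 0, numbered 0 to 1 with a library left out. With DESeq2, Sprr2a1 and Sprr2a2 had adjusted p of 0.0248 and 0.0145. The replicate numbers are not known to pair the samples: deviations of same-numbered libraries correlated at 0.031, -0.0045 and -0.023. With the number as a block, 8 genes and 0 members were called, the members' median was 0.11, and edgeR adjusted p was 0.540 for Sprr2a1 and 0.517 for Sprr2a2.

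Signs that reversed among the members named by rule were those of values within 0.13 of 0 and of Lce1a1, near the floor. Lce1a1, at -0.47, was 0.85 with limma-voom, 0.17 with log2(FPKM + 0.1), 0.10 with the replicate block, 0.0166 (edgeR) and 0.0153 (DESeq2) summed with Lce1a2, and -1.05 to 0.57 with a library left out. Lce3c, at -0.012, was 0.0696 with limma-voom, 4.95e-04 with counts divided by 4, 0.0432, 0.0338 and 0.0338 with the limma fits on FPKM, 0.0379 with the block, and -0.28 to 0.29 with a library left out. Crct1, at 0.0027, was -0.0033 with limma-voom, -0.0048 with no filter, -0.0034 at a minimum count of 50, -7.75e-04, -5.79e-04 and -5.79e-04 with the FPKM fits, and -0.0492 to 0.0889 with a library left out. With a library left out Flg ran from -0.28 to 0.0637, Tgm1 from -0.0996 to 0.11, Tchh from -0.0187 to 0.26, Casp14 from -0.0058 to 0.23, Dmkn from -0.0257 to 0.0896 and Krtdap from -0.19 to 0.0406. Of the other members above the floor in all libraries, Sprr2g (0.19) ran from -0.13 to 0.43, Lce1h (-0.18) from -0.42 to 0.13, Lce3f (0.17) from -0.10 to 0.48, Sbsn (-0.012) from -0.14 to 0.20 and Sprr1b (-0.049) from -0.091 to 0.017 over the 20 settings. Flg2, Sprr2f, Sprr2i, Lce1d, Lce3b and Tgm3, at or under the floor in some or all libraries, also changed sign. The cause of these shifts was not tested. Depth limits the 22 members that were at or under 12 deposited counts in at least 1 library.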

Other observations

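The stretch of chromosome 3 that holds 38 of the members also holds 47 other annotated genes, of which 18 are protein-coding. Of the 47, 14 passed the filter, 9 were above the floor in all 6 libraries and 0 were called by edgeR. Lce3d, a late envelope gene outside the list, averaged 11.4 FPKM over the 6 libraries, with 5.76, 7.34 and 6.50 CPM with IL-33, against 5.05, 7.20 and 5.61 CPM untreated (log2 fold change 0.13, edgeR adjusted p = 0.920). Gm9774, a gene next to the Sprr2 genes, had 10.7, 11.5 and 9.22 CPM with IL-33, against 10.5, 11.4 and 10.8 CPM untreated (log2 fold change -0.06, edgeR adjusted p = 0.951). Both overlapped between groups.

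The 3 neighbours with the smallest p had values in both directions and were chosen after their values were seen. Sprr2k, another Sprr2 gene, had 28, 32 and 24 deposited counts with IL-33, against 48, 82 and 54 untreated, a log2 fold change of -1.01 (edgeR adjusted p = 0.740). The predicted gene 2310046K23Rik had 56, 44 and 58 deposited counts with IL-33, against 37, 14 and 32 untreated, a log2 fold change of 1.04 (edgeR adjusted p = 0.740). The processed pseudogene Gm4202 had 178, 110 and 181 deposited counts with IL-33, against 333, 320 and 202 untreated, a log2 fold change of -0.78 (edgeR adjusted p = 0.622). In none of these 3 did the groups overlap.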
